A study of Bos taurus with 11 samples.

Results

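The insulin-like growth factor (IGF) system was examined in mammary parenchyma of 11 female Holstein calves as 10 genes: the ligands IGF1 and IGF2, the receptors IGF1R and IGF2R, and the binding proteins IGFBP1 to IGFBP6. They were chosen by name, and each was read from the probe set annotated to its symbol alone, 1 probe set per gene. They make up 10 of 18444 genes that had such a probe set on the array. Calves were allotted at birth to a plane of milk replacer and killed at 54 ± 2 days. Elevated calves (n = 6) drank on average 8.4 L per day over 3 meals, worth 5.9 ± 0.2 (SE) Mcal of metabolisable energy, and restricted calves (n = 5) drank 4 L over 2 meals, worth 2.8 ± 0.2 Mcal. Both groups were given the same milk replacer, with 28% protein and 15% fat, and starter grain from day 18. Meal number went with the amount supplied, so the effects of meal number and amount cannot be told apart. The labels give 6 calves per diet at the start, of which 1 restricted calf was lost to sampling because its gland had hardly developed, so this loss was not random.

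IGF1 and IGF2 are small secreted peptides related to insulin. Both signal through IGF1R, a receptor tyrosine kinase that promotes growth and survival, whereas IGF2R, which is also the mannose 6-phosphate receptor, carries IGF2 to lysosomes for breakdown. The binding proteins hold the ligands in plasma and matrix, and proteases release them. In the mammary gland, growth hormone acts largely on the stroma, and IGF1 made there is a known local signal for growth of the ducts.

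Values are RMA values on a log2 scale, on which a gap of 1 stands for 2-fold, and RMA narrows differences between dim signals. Levels of different genes cannot be set against each other, because each probe set has its own brightness. The samples were mixed tissue, and fewer cells of a type and less RNA per cell cannot be told apart. Luminal markers were measured (EPCAM averaged 9.39 in elevated and 8.36 in restricted calves), as were basal markers (KRT5 averaged 9.78 and 9.58). Other markers of these lists were dimmer, such as the luminal KRT8 (6.52 and 5.55) and the basal KRT14 (5.79 and 6.19). Both lists thus had bright members in each group on average, which does not speak for each calf. The mean of 17 of 18 adipocyte markers ran from 7.32 to 8.96 in elevated and from 8.37 to 10.47 in restricted calves. That of 18 of 18 luminal markers ran from 8.01 to 8.82 and from 6.35 to 8.43. Restricted 2 and restricted 4 had the highest adipocyte means (10.47 and 9.98) and the lowest luminal means (6.35 and 7.59). Elevated 5 stood apart in 12 mitosis genes, with a mean of 5.81 against 7.93 to 8.60 in the other 10 calves. All 12 of 12 skeletal muscle markers averaged higher in elevated calves, with means of 5.33 to 6.87 against 5.10 to 5.64 (exact permutation p = 0.0303) and the highest value in elevated 5, and their part in the results was not tested. No value in the table was at 0, and where leaving out these calves moved a difference by over 1.5 times, the value without them is given.

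The diets were first compared for the 10 genes as a group. In limma's test on all 26773 probe sets, 0 of the 10 passed a Benjamini-Hochberg adjusted p of 0.05, where 2 probe sets (0.00747%) passed in all. At an unadjusted p under 0.05 there was 1 of 10, IGF1R, against 10.3% of all probe sets (4.95% higher and 5.33% lower in elevated calves). The same gene was the 1 of 10 at which the groups did not overlap, against 1.28% of all probe sets (0.53% with elevated calves above and 0.751% with them below). Of the 10, 4 averaged higher and 6 lower in elevated calves, with a median log2 difference of -0.11 (all probe sets 0.0031). The median absolute difference was 0.28, against 0.11 over all probe sets. These medians were not matched for brightness or spread. Apart from IGF2 (percentile 6.71) and IGF2R (38.5), the genes had within-group SDs at percentiles 60.1 (IGF1) to 99.6 (IGFBP2) of all probe sets. No excess of diet differences is therefore read from the medians.

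**Figure D1:**
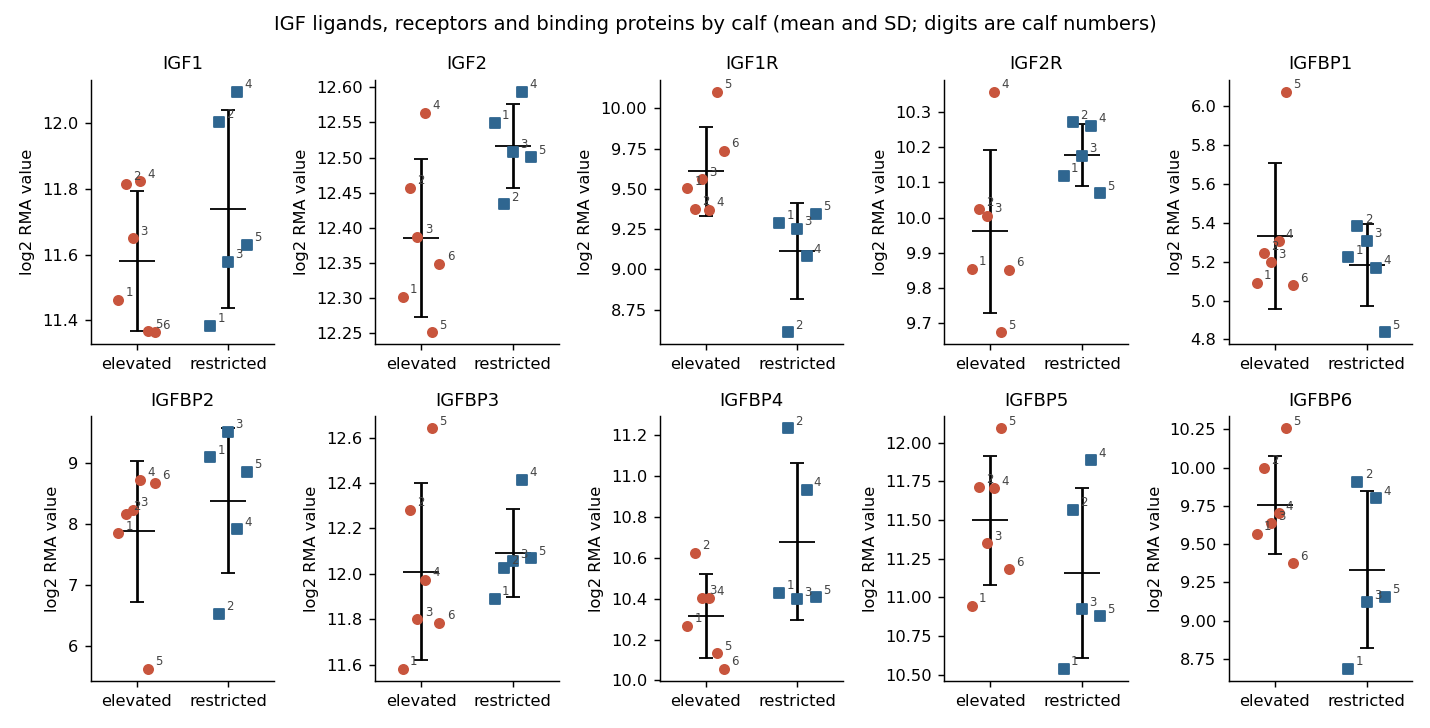
Log2 RMA value of the 10 genes (y axes, one scale per gene) in elevated (circles) and restricted (squares) calves, with the calf number beside each point; lines are means and bars are SD. The groups separate at IGF1R, where elevated calves run from 9.37 to 10.10 and restricted calves from 8.61 to 9.34, and elevated 5 stands far below the other elevated calves at IGFBP2.

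The ligand IGF1 did not separate the diets. Elevated calves ran from 11.36 to 11.82 with a median of 11.56. Restricted 1 to 5 stood at 11.38, 12.00, 11.58, 12.10 and 11.63. The values overlapped, and restricted 2 and restricted 4, the calves with the most adipocyte marker signal, were the highest of all 11. The log2 difference, elevated minus restricted, was -0.16 ± 0.15 (SE; 95% interval -0.48 to 0.16; limma adjusted p = 0.751). It was -0.25 without restricted 1, -0.091 without restricted 2 and -0.068 without restricted 4. Without restricted 2 and restricted 4 it turned to 0.050, and with the adipocyte or the luminal marker mean as a covariate to 0.038 and 0.033. The part of tissue make-up in this difference was not tested further.

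The other ligand, IGF2, did not separate the diets either. Elevated calves ran from 12.25 to 12.56 with a median of 12.37, and restricted 1 to 5 measured 12.55, 12.43, 12.51, 12.59 and 12.50. Of 6 elevated calves, 4 lay below every restricted calf, but elevated 2 and elevated 4 did not. The mean was 12.39 ± 0.11 (SD) in elevated and 12.52 ± 0.06 in restricted calves. In limma the difference of -0.13 ± 0.07 (SE) had an unadjusted p of 0.0950 and an adjusted p of 0.565. The exact two-sided permutation p was 0.0498, unadjusted, over the 462 splits of the calves into 6 and 5. The within-group SD of IGF2 was at percentile 6.71 of all probe sets and its mean at percentile 99.6. The part of this brightness in the small spread was not tested. The difference kept its direction in each fit with 1 calf left out (-0.17 to -0.11).

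IGF1R, the receptor through which both ligands signal, averaged 1.41-fold higher in elevated calves. Elevated 1 to 6 measured 9.50, 9.37, 9.56, 9.37, 10.10 and 9.74. Restricted 1 to 5 measured 9.29, 8.61, 9.25, 9.08 and 9.34. Every elevated calf lay above every restricted calf, though elevated 2 and elevated 4 exceeded restricted 5 by little, and elevated 5 and restricted 2 were the extremes. The log2 difference was 0.49 ± 0.16 (SE; 95% interval 0.13 to 0.85), with a limma unadjusted p of 0.0113, an adjusted p of 0.363 and an exact permutation p of 0.00649, unadjusted. It ran from 0.37 (without restricted 2) to 0.55 (without restricted 5) when single calves were left out. Without restricted 2 and restricted 4 it was 0.31 (limma unadjusted p = 0.0773), and with the adipocyte or the luminal mean as a covariate it was 0.33 (unadjusted p = 0.112) and 0.29 (unadjusted p = 0.0845).

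IGF2R, the clearance receptor for IGF2, differed in the opposite direction. Elevated calves ran from 9.67 to 10.36 with a median of 9.93, and restricted 1 to 5 were at 10.12, 10.27, 10.18, 10.26 and 10.07. Of 6 elevated calves, 5 lay below every restricted calf, while elevated 4 lay above all of them. The difference was -0.22 ± 0.11 (SE; 95% interval -0.46 to 0.026; limma adjusted p = 0.541; exact permutation p = 0.0823). Elevated 4 alone made the groups overlap, so leaving it out had to separate them. The difference was then -0.30 (limma adjusted p = 0.219), with the calf chosen for its value. Without elevated 5 it was -0.16, and with the adipocyte or the luminal mean as a covariate it was -0.13 and -0.14.

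**Figure D2:**
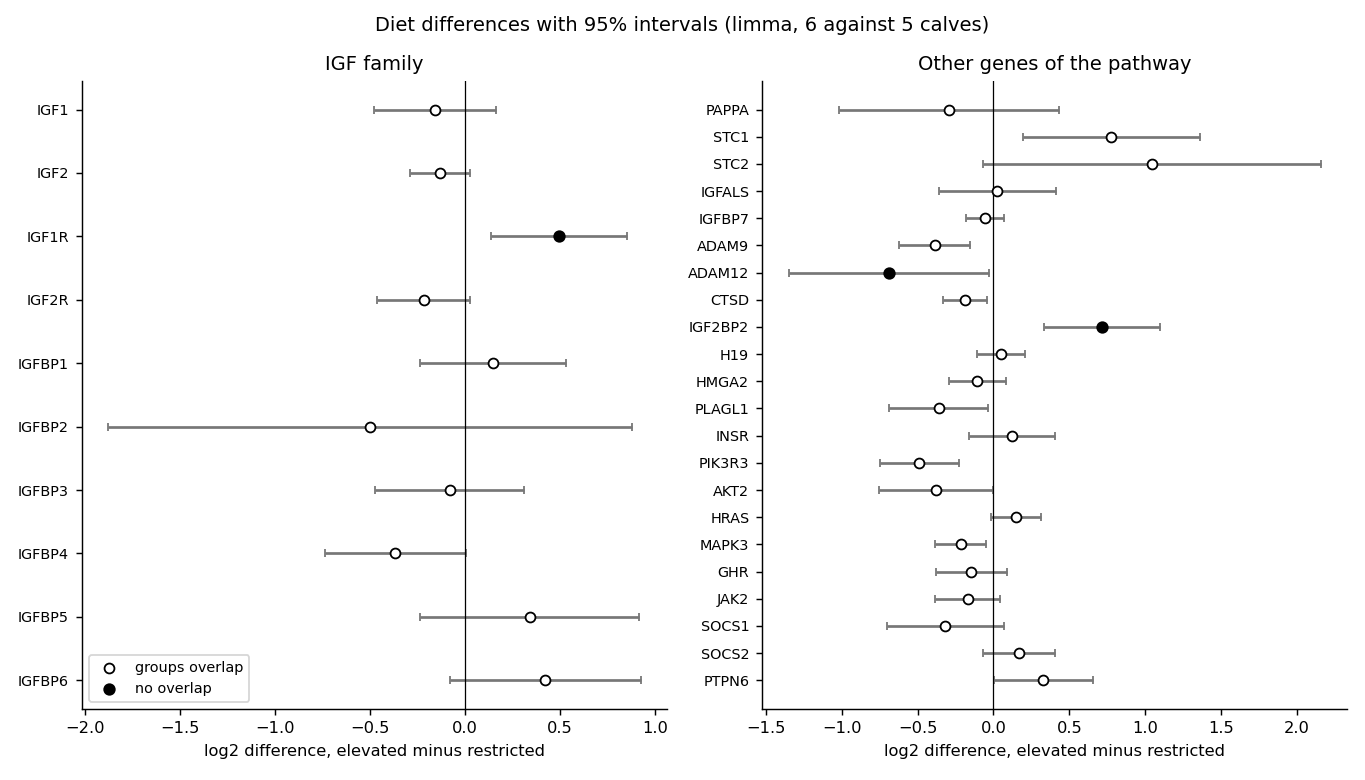
Log2 difference, elevated minus restricted (x axes), of the 10 genes (left) and of other pathway genes (right), with 95% limma intervals over 6 and 5 calves; filled points mark genes at which the groups do not overlap. IGF1R (0.49) is the gene on the left whose interval stays clear of 0, and IGFBP2 has the widest interval.

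Among the binding proteins, IGFBP4, an inhibitor that the protease PAPPA cleaves, averaged lower in elevated calves. Elevated calves ran from 10.06 to 10.62 with a median of 10.33, and restricted 1 to 5 measured 10.43, 11.23, 10.40, 10.93 and 10.41. Restricted 2 and restricted 4 stood above all others, and the other restricted calves lay within the elevated range. The log2 difference was -0.37 ± 0.17 (SE; 95% interval -0.74 to 0.0037; limma adjusted p = 0.492). It was -0.23 without restricted 2 and -0.097 without restricted 2 and restricted 4. With the adipocyte or the luminal mean as a covariate it was -0.12 and -0.098.

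IGFBP5 and IGFBP6 averaged higher in elevated calves. IGFBP5 binds to matrix and in rodents rises as the gland regresses after lactation. It ran from 10.95 to 12.09 with a median of 11.53 in elevated calves, and measured 10.54, 11.56, 10.92, 11.89 and 10.88 in restricted 1 to 5. The groups overlapped because restricted 2 and restricted 4 reached elevated levels. The difference was 0.34 ± 0.26 (SE; limma adjusted p = 0.694). It was smaller without restricted 1 (0.19) or elevated 5 (0.22) and larger without restricted 4 (0.52).

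IGFBP6, which prefers IGF2 over IGF1, ran from 9.37 to 10.26 with a median of 9.67 in elevated calves. In restricted 1 to 5 it measured 8.68, 9.91, 9.12, 9.80 and 9.16, again high in restricted 2 and restricted 4. The difference was 0.42 ± 0.23 (SE; limma adjusted p = 0.563; exact permutation p = 0.130), and ran from 0.26 without restricted 1 to 0.57 without restricted 2. Without restricted 2 and restricted 4 IGFBP5 differed by 0.72 (unadjusted p = 0.0127, adjusted p = 0.426 in limma) and IGFBP6 by 0.77 (unadjusted p = 0.00317, adjusted p = 0.299), and neither overlapped between the diets. IGF1R and IGFBP2 did not overlap in that comparison of 6 against 3 calves either. In all, 4 of 10 did not, against 5.46% of all probe sets. Restricted 2 and restricted 4 alone had made IGFBP2, IGFBP5 and IGFBP6 overlap, and IGF1R was separate with all calves. Leaving both out therefore had to separate all 4, and their number is not read as an excess. At an unadjusted p under 0.05 there were then 2 of 10, against 8.72% of all probe sets, and past the adjusted threshold 0 of 10, against 0.0934%. With all calves kept, IGFBP5 and IGFBP6 differed by 0.82 and 0.80 once the adipocyte mean entered as covariate (limma adjusted p = 0.384 and 0.382). With the luminal mean they differed by 0.71 and 0.77 (limma adjusted p = 0.325 and 0.213). Restricted 2 and restricted 4 had the highest adipocyte and the lowest luminal means, so these fits are not independent of leaving them out.

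IGFBP2, a binding protein that also carries an integrin-binding motif, had the widest spread of the 10. Elevated 1 to 6 measured 7.85, 8.17, 8.23, 8.73, 5.63 and 8.68, and restricted 1 to 5 measured 9.09, 6.54, 9.51, 7.92 and 8.85. Elevated 5 and restricted 2 were the lowest, and the highest 3 values all came from restricted calves. Its within-group SD was 1.16, at percentile 99.6 of all probe sets, so the difference of -0.50 ± 0.63 (SE) had a 95% interval from -1.88 to 0.88 (limma adjusted p = 0.825). The difference was -0.050 without elevated 5, -0.32 without restricted 1, -0.22 without restricted 3, -0.96 without restricted 2 and -1.27 without restricted 2 and restricted 4 (limma unadjusted p = 0.0644). With the adipocyte or the luminal mean as a covariate it was -1.33 and -1.31.

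IGFBP3, the main carrier of IGFs in plasma, overlapped fully. Elevated calves ran from 11.58 to 12.64 with a median of 11.89, and restricted 1 to 5 measured 11.89, 12.03, 12.05, 12.41 and 12.07. Elevated 5 was the highest calf and elevated 1 the lowest, so the elevated group spanned the restricted one. The difference of -0.081 ± 0.18 (SE; 95% interval -0.47 to 0.31; limma adjusted p = 0.904) took the other sign without elevated 1 (0.0051) or restricted 4 (0.00025), without restricted 2 and restricted 4 (0.0054), and with either marker mean as a covariate (0.097 and 0.028). Without elevated 5 it was -0.21.

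IGFBP1, known chiefly as a product of liver and of the decidua, was dim. Its values, between 4.84 and 6.08, lay under every array's median (6.37 to 6.45). Elevated 5 measured 6.08, and all other calves 4.84 to 5.38. The difference was 0.15 ± 0.18 (SE; limma adjusted p = 0.811), -0.00028 without elevated 5 and 0.062 without restricted 5. With the adipocyte or the luminal mean as a covariate it was 0.32 and 0.28.

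**Figure D3:**
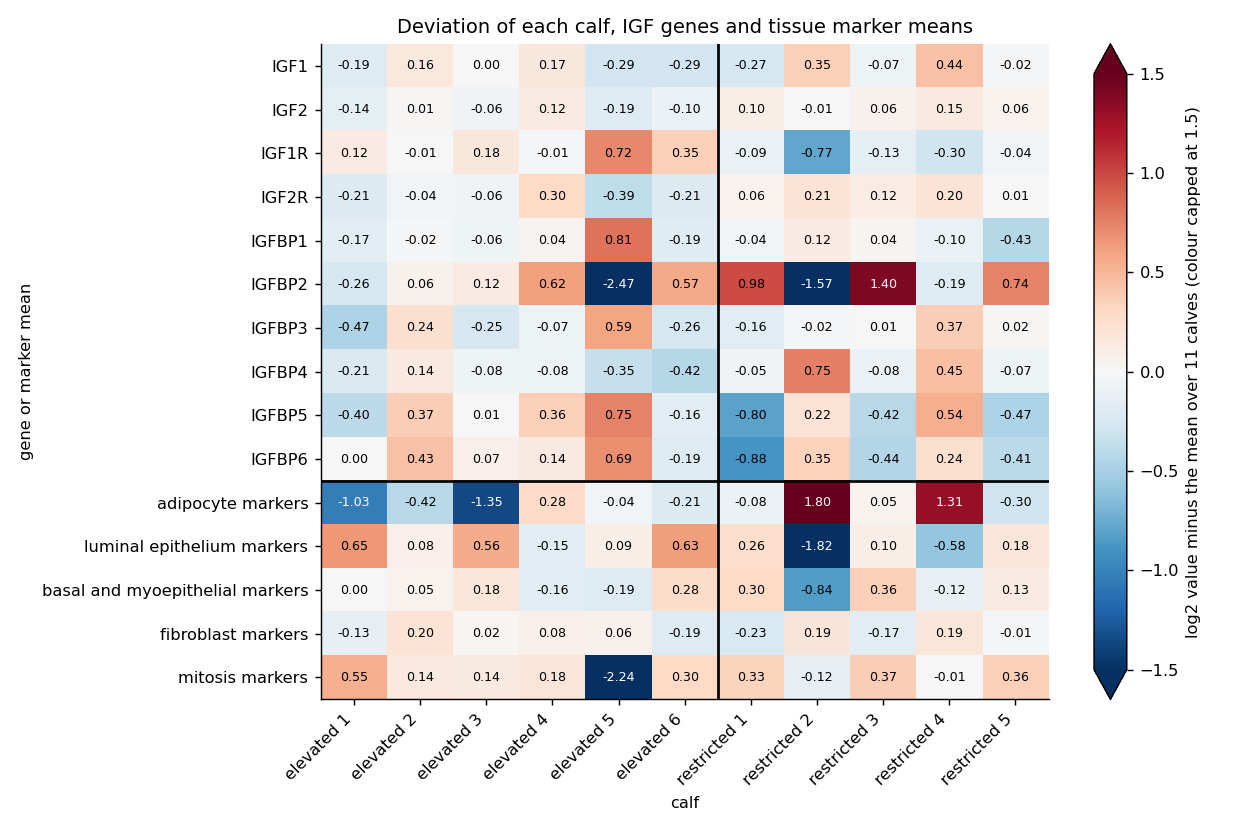
Log2 value minus the mean over 11 calves, for the 10 genes (upper rows) and the means of 5 marker lists (lower rows), by calf (columns; elevated left, restricted right), with the number in each cell and colour capped at 1.5. Restricted 2 and restricted 4 are high in adipocyte markers, IGF1 and IGFBP4, and elevated 5 is low in IGFBP2 and in mitosis markers.

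How the 10 genes varied with each other was then described over the 11 calves. All 45 pairs were computed, with permutation tests of 100000 resamples and adjustment over the pairs, and 7 passed by Pearson's r and 4 by Spearman's rho. This set of pairs was chosen after seeing the data. Pairs of other genes were not tested, so whether 7 of 45 is more than other genes would give is not known. IGFBP5 and IGFBP6 were the closest pair (r = 0.93, permutation p = 4e-05, adjusted p = 0.0018; rho = 0.94, p = 9e-05, adjusted p = 0.0041). Without elevated 5 and restricted 1, the calves farthest out in IGFBP6, r was 0.85. It was 0.92 within diets, after each diet's mean was taken off, and 0.90 to 0.96 with each calf left out in turn.

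IGF2 went with its clearance receptor IGF2R (r = 0.88, permutation p = 0.00038, adjusted p = 0.0043; rho = 0.83, p = 0.0028, adjusted p = 0.0316). Their r was 0.79 without elevated 4 and elevated 5 and 0.82 within diets. The receptors ran against each other, as IGF1R and IGF2R gave r = -0.82 (permutation p = 0.00198, adjusted p = 0.0178; rho = -0.85, p = 0.0016, adjusted p = 0.0316), -0.87 without the same calves and -0.72 within diets. Between IGFBP2 and IGFBP6, r was -0.79 (permutation p = 0.0032, adjusted p = 0.0237; rho = -0.83, p = 0.0028, adjusted p = 0.0316) and -0.73 without elevated 5 and restricted 1.

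IGFBP4 went with IGF1 (r = 0.87, permutation p = 0.0003, adjusted p = 0.0043; rho = 0.78, p = 0.0063, adjusted p = 0.0565) and against IGF1R (r = -0.89, permutation p = 0.00019, adjusted p = 0.0043; rho = -0.75, p = 0.0099, adjusted p = 0.0639). Without restricted 2 and restricted 4 these were 0.75 and -0.75. The remaining pair, IGF1 with IGF1R, had r = -0.73 (permutation p = 0.0064, adjusted p = 0.0410; rho = -0.64, p = 0.0396, adjusted p = 0.162) and -0.63 without elevated 5 and restricted 2. With single calves left out, 3 pairs passed each time (IGFBP5 with IGFBP6, IGF1 with IGFBP4, and IGF2 with IGF2R).

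In the reference gene order of ARS-UCD2.0, IGFBP2 lies next to IGFBP5 and IGFBP3 next to IGFBP1. Neither neighbouring pair was among those that passed. IGFBP2 and IGFBP5 gave r = -0.68 (permutation p = 0.0182, adjusted p = 0.0819; rho = -0.71, p = 0.0183, adjusted p = 0.0915) and -0.44 without elevated 5 and restricted 1. IGFBP1 and IGFBP3 gave r = 0.62 (permutation p = 0.0461, adjusted p = 0.138; rho = 0.41, p = 0.214, adjusted p = 0.504), which was 0.029 without elevated 1 and elevated 5.

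**Figure D4:**
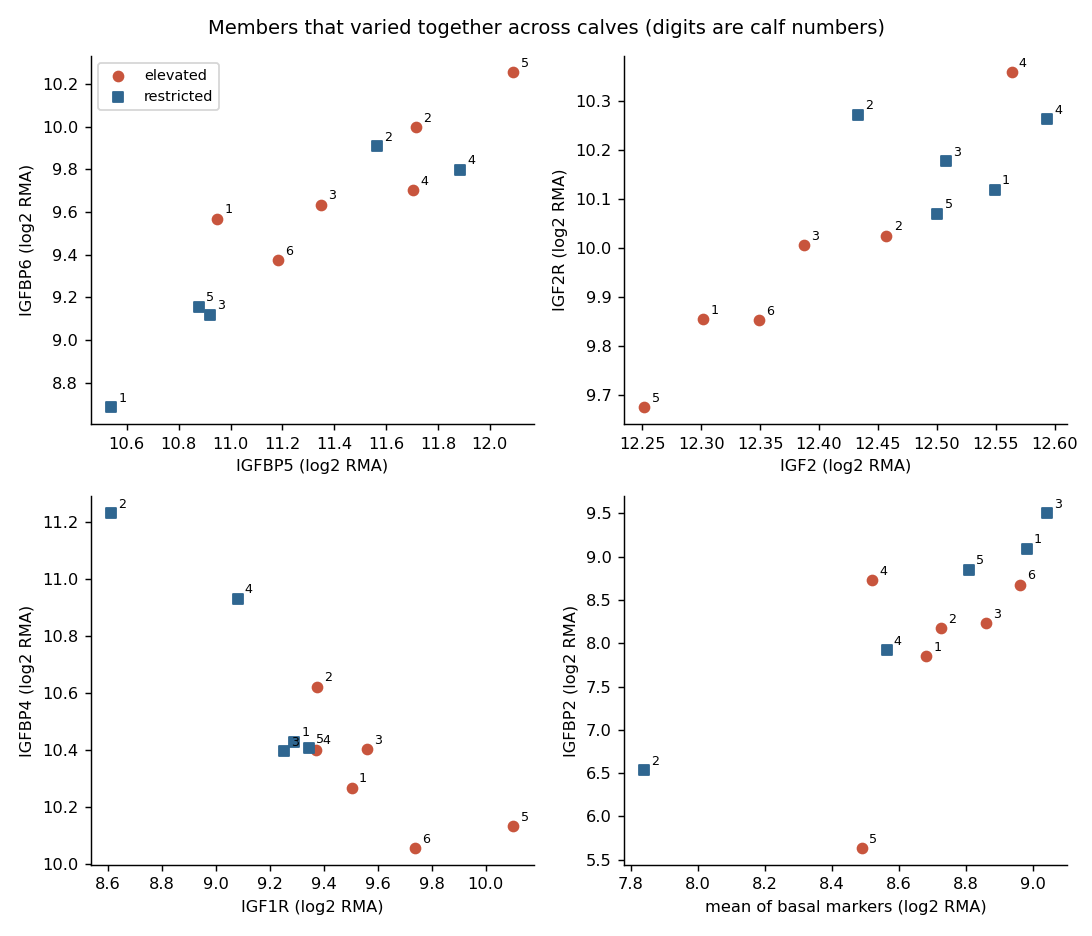
Log2 RMA values of 11 calves for IGFBP6 against IGFBP5, IGF2R against IGF2, IGFBP4 against IGF1R, and IGFBP2 against the mean of basal markers, with the calf number beside each point (circles elevated, squares restricted). The upper pairs go together (r = 0.93 and 0.88), the lower left pair runs in opposite directions (r = -0.89), and elevated 5 lies below the other calves in the lower right panel.

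Each gene was also set against the means of 4 marker lists (adipocyte, luminal, basal and fibroblast), 40 relations in all, of which 5 passed adjustment by Pearson's r and 1 by Spearman's rho. Fibroblast markers, genes of collagen-making stromal cells, went with IGF1, IGFBP5 and IGFBP6. For IGFBP6, r was 0.79 (permutation p = 0.0036, adjusted p = 0.0397; rho = 0.86, p = 0.0012, adjusted p = 0.0488), and 0.70 without elevated 6 and restricted 1. For IGFBP5, r was 0.81 (permutation p = 0.0042, adjusted p = 0.0397; rho = 0.78, p = 0.0068, adjusted p = 0.0644), and 0.77 without them. For IGF1, r was 0.81 (permutation p = 0.0035, adjusted p = 0.0397; rho = 0.77, p = 0.0081, adjusted p = 0.0644), and 0.72 without them. The fibroblast mean itself was 11.65 ± 0.14 (SD) in elevated and 11.64 ± 0.20 in restricted calves (exact permutation p = 0.894), and 14 of 14 markers were measured.

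The luminal mean ran against IGFBP4 (r = -0.89, permutation p = 0.0010, adjusted p = 0.0397; rho = -0.64, p = 0.0396, adjusted p = 0.135) and IGF1 (r = -0.74, permutation p = 0.0050, adjusted p = 0.0397; rho = -0.75, p = 0.0111, adjusted p = 0.0741). Without restricted 2 and restricted 4 these were -0.44 and -0.52, so the strength of both rested in part on those calves. IGF1R had r = 0.76 to the luminal mean (permutation p = 0.0111, adjusted p = 0.0634; rho = 0.58, p = 0.0659, adjusted p = 0.159). Without restricted 2 and restricted 4 r was 0.22, within diets 0.66, and with single calves left out 0.46 to 0.95. These 2 calves had the lowest luminal means, so leaving them out also narrowed the range over which r was taken. IGFBP4 had r = 0.75 to the adipocyte mean (permutation p = 0.0101; rho = 0.33, p = 0.325). Without the same calves, which had the highest adipocyte means, r was -0.072. It was 0.62 within diets and 0.52 to 0.82 with single calves left out. IGFBP2 went with basal markers (r = 0.73, permutation p = 0.0163, adjusted p = 0.0813; rho = 0.80, p = 0.0051, adjusted p = 0.0644), and r was 0.63 without restricted 2 and restricted 3. IGFBP6 ran against the basal mean (r = -0.64, permutation p = 0.0346, adjusted p = 0.106; rho = -0.82, p = 0.0035, adjusted p = 0.0644). So did IGFBP5 (r = -0.57, permutation p = 0.0607, adjusted p = 0.141; rho = -0.72, p = 0.0165, adjusted p = 0.0941). The count of relations that passed was unstable, at 0 without restricted 2 and restricted 4 and between 0 and 14 with single calves left out. The highest count came without elevated 5.

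Genes with the most similar pattern were listed for each of the 10, by Pearson's r over 11 arrays among 10524 other genes at or above the median brightness (10525 for IGFBP1). They are the top of a long ranking and carry no test. For IGF1 they were RAVER2 (r = 0.96) and COL5A2 (0.94), and for IGF2 they were HMOX1 (0.93) and GPR75 (0.92). IGF1R was closest to USP12 (0.97) and PARP4 (0.97, rho = 0.998), and IGF2R to MPP2 (0.96) and FAM98A (0.96). IGFBP5 ran closest to TMEM47 (0.97) and TBX5 (0.97), and IGFBP6 to PDE1A (0.98) and MMP16 (0.96). IGFBP2 was nearest to ZC4H2 (0.97) and MACROH2A2 (0.96), IGFBP3 to SASH1 (0.97) and MBNL2 (0.95), and IGFBP4 to NDFIP1 (0.94) and HADH (0.93). For IGFBP1 they were ZNF592 (0.95) and HSF5 (0.95), and r was 0.48 and 0.73 without elevated 5 and restricted 5. For NDFIP1 and HADH with IGFBP4, r was 0.75 and 0.64 without restricted 2 and restricted 4. For the other genes it was 0.83 to 0.97 without the 2 calves farthest out in each gene.

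The genes around the family were read from the same fit. None of the 58 measured pathway genes named in 4 lists passed the adjusted threshold. Of genes that set IGF availability, 17 of 18 were measured, 7 averaged higher and 10 lower in elevated calves (median -0.058), and 4 had an unadjusted p under 0.05 (1 higher, 3 lower), where 10.3% of all probe sets did (4.95% higher and 5.33% lower). STC1, a stanniocalcin that inhibits PAPPA, ran from 9.32 to 10.08 in elevated calves with a difference of 0.78 ± 0.27 (SE; limma adjusted p = 0.374). Its restricted values were 8.35, 8.82, 8.38, 9.86 and 9.10, so that restricted 4 alone lay within the elevated range. STC2, the related inhibitor, differed by 1.04 ± 0.51 (limma adjusted p = 0.517), and by 0.63 without elevated 5, which measured 9.09 against 6.29 to 6.97 in the other elevated calves.

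PAPPA, the protease for IGFBP4 and IGFBP5, differed by -0.29 ± 0.33 (SE; limma adjusted p = 0.800), ran from 6.28 in elevated 5 to 8.51 in restricted 2, and took the other sign without restricted 2 and restricted 4 (0.080). It was -0.063 without elevated 5, -0.096 without restricted 2 and -0.47 without elevated 4. ADAM12, a metalloprotease that cleaves IGFBP3 and IGFBP5, lay lower in every elevated calf (9.26 to 11.29) than in any restricted calf (11.36 to 11.46), with a difference of -0.69 ± 0.30 (limma adjusted p = 0.471), a separation that 0.751% of all probe sets had in this direction. Elevated 5 was its lowest calf, and the difference was -0.39 without it. ADAM9, another such protease, differed by -0.39 ± 0.11 (adjusted p = 0.301), and the lysosomal protease gene CTSD by -0.19 ± 0.07 (adjusted p = 0.390). IGFALS, the partner that completes the ternary complex in plasma, differed by 0.026 ± 0.18, by 0.23 without restricted 2 and restricted 4 and by -0.092 without elevated 5. IGFBP7, a low-affinity relative, differed by -0.058 ± 0.06, and by -0.038 without elevated 6.

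Of genes tied to IGF2 transcripts, 6 of 7 were measured, 4 averaged higher and 2 lower (median 0.040), and 2 had an unadjusted p under 0.05 (10.3% of all probe sets). IGF2BP2, an RNA-binding protein named for binding IGF2 mRNA, measured 7.55, 7.45, 7.55, 7.97, 8.04 and 7.70 in elevated 1 to 6. In restricted 1 to 5 it measured 6.46, 7.40, 6.96, 7.30 and 6.87. The groups did not overlap (0.53% of all probe sets, elevated above), although restricted 2 came close to elevated 2. The difference was 0.71 ± 0.17 (SE; limma adjusted p = 0.265; exact permutation p = 0.0022, the smallest that 462 splits can give), single left-out calves moved it between 0.58 and 0.81, and without restricted 2 and restricted 4 it was 0.95 (limma adjusted p = 0.110). PLAGL1, an imprinted zinc finger gene, differed by -0.36 ± 0.15 (limma adjusted p = 0.443), and by -0.19 and -0.22 with the adipocyte or the luminal mean as a covariate. H19, the imprinted RNA that shares control elements with IGF2, differed by 0.053 ± 0.07, by 0.0056 without restricted 1 and by 0.093 without restricted 2 and restricted 4. HMGA2, which in mice activates IGF2BP2, differed by -0.11 ± 0.09 at a dim level of 4.70 to 5.21, and by -0.058 without restricted 2 and restricted 4.

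In the list of the insulin receptor family and proximal signalling, 24 of 29 genes were measured, 11 averaged higher and 13 lower (median -0.014), and 3 had an unadjusted p under 0.05, all of them lower in elevated calves. That is 3 of 24 beside 10.3% of all probe sets, or 5.33% in this direction. PIK3R3, a regulatory subunit of phosphoinositide 3-kinase, differed by -0.49 ± 0.12 (SE; limma adjusted p = 0.266). MAPK3, also called ERK1, differed by -0.22 ± 0.08 (limma adjusted p = 0.385), and by -0.13 without restricted 2 and restricted 4 (unadjusted p = 0.129). It was followed by the kinase gene AKT2, at -0.38 ± 0.17 (limma adjusted p = 0.480). AKT2 was highest in restricted 2 (10.00) and restricted 4 (9.62), against 8.82 to 9.27 in the other 9 calves, and differed by -0.090 without those 2. HRAS differed by 0.15 ± 0.08, and by 0.24 with the adipocyte covariate. INSR, the insulin receptor, differed by 0.12 ± 0.13, and by 0.018 without elevated 5.

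Growth hormone input was the last list, with 11 of 11 genes measured, 4 averaging higher and 7 lower (median -0.041) and 1 at an unadjusted p under 0.05, beside 10.3% of all probe sets. That gene was PTPN6, a phosphatase gene (0.33 ± 0.15 SE; limma adjusted p = 0.485; 0.21 without restricted 2 and restricted 4). GHR, the growth hormone receptor, ran from 9.86 to 10.44 in elevated and from 10.14 to 10.37 in restricted calves, and differed by -0.15 ± 0.11 (limma adjusted p = 0.669), and by -0.091 without elevated 5. JAK2, its kinase, differed by -0.17 ± 0.10, by -0.097 without restricted 3 and by -0.27 without restricted 2 and restricted 4. The feedback inhibitors SOCS1 and SOCS2 differed by -0.32 ± 0.18 and 0.17 ± 0.11. SOCS1 differed by -0.021 without restricted 2 and restricted 4, and SOCS2 by 0.30 (limma unadjusted p = 0.0101, adjusted p = 0.413).

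**Figure D5:**
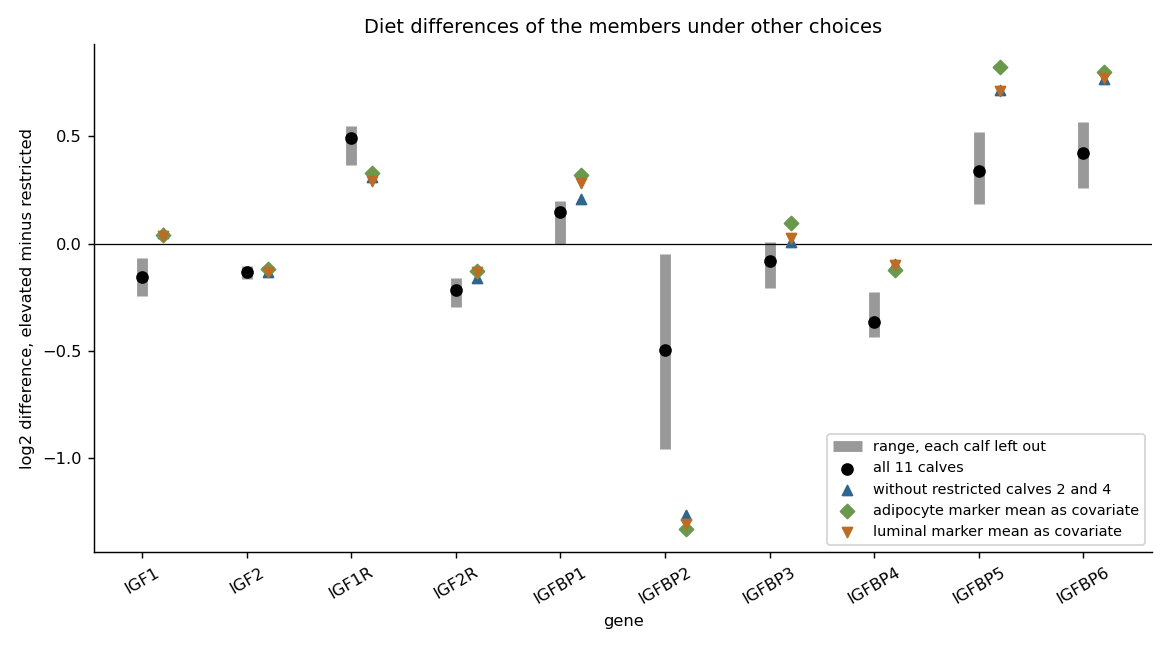
Log2 difference, elevated minus restricted (y axis), of each of the 10 genes (x axis) with all 11 calves (black points), over fits with each calf left out (grey bars), and under 3 other choices (coloured markers). IGF1R stays above 0 throughout (0.29 to 0.55), IGFBP5 and IGFBP6 are higher without restricted 2 and restricted 4 (0.72 and 0.77), and IGF1 and IGFBP3 cross 0.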

How the data were processed

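Samples of 100 ng RNA, with integrity numbers over 7.0, were biotin-labelled and hybridised to 1-colour arrays, per the labels' protocols. The authors deposited log2 values, and per the submitters' processing notes these came from RMA (version not stated there). That the scale is log2 was read from the values themselves. Settings of RMA and the genome build of the array were not given in the sources used here, and no coordinates are printed. These are array signals, so no read depth applies. Of all pairs of arrays, 0 held identical values (correlations 0.964 to 0.990).

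Each gene had 1 probe set with a single symbol in the platform annotation, and 10 of 10 gene numbers matched RefSeq's ARS-UCD2.0 table. A pathway gene with several probe sets was read from the one with the highest mean. The test was limma 3.58.1 (R 4.3.3; lmFit, eBayes, no covariate, no filter) on 26773 probe sets, with Benjamini-Hochberg adjustment. SE is limma's moderated standard error. Exact permutation tests were two-sided, over 462 splits. Correlations, two-sided, used numpy 2.4.6. Tests were checked on simulated data. Figures were drawn with matplotlib 3.10.9.

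Named pathway genes were the up to 4 of each list with the smallest p, and 6 always given. Similar genes were the 2 with the highest r. The genes, lists and tests were chosen with earlier results of these data known, so they are no independent support. Each array is a separate calf, per the labels. Other settings tried were median centring or quantile normalisation, filters on dim or unannotated probe sets, another variance model, array weights, a block for replicate number, covariates from marker means, and leaving out calves.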

Additional observations from a re-analysis of the deposited data

Results flagged for a closer look

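Groups of 6 or 5 calves were searched for a calf far from the rest, over the 10 IGF genes, 22 pathway genes and 8 marker means. Of 80 groups, 7 held one, and chance gives about 5% of groups. Of these, 5 concerned elevated 5. It measured 6.08 at IGFBP1 (others 5.08 to 5.30), 5.63 at IGFBP2 (others 7.85 to 8.73), 9.26 at ADAM12 (others 10.79 to 11.29), 9.09 at STC2 (others 6.29 to 6.97) and 5.81 in the mean of mitosis markers (others 8.20 to 8.60). Restricted 1 measured 12.82 at H19 (other restricted calves 13.02 to 13.08), and elevated 6 measured 12.78 at IGFBP7 (other elevated calves 12.88 to 12.93).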

How the results depend on the processing

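None of the 10 IGF genes passed the adjusted threshold in limma under any of 10 other choices or with any of 11 calves left out, and the same held for the pathway lists. The count at an unadjusted p under 0.05 was 1 in the full comparison, 2 with quantile normalisation, array weights, the adipocyte covariate or without restricted 2 and restricted 4, 3 with a variance trend, the replicate block or the luminal covariate, and 1 to 3 with single calves left out. Without restricted 2 and restricted 4, 4 genes did not overlap, and 1 to 2 with single calves left out. Restricted 2 and restricted 4 alone had made IGFBP2, IGFBP5 and IGFBP6 overlap, so leaving them out had to separate these genes. For all probe sets, shares by these unadjusted rules were computed only for 2 comparisons. In the full comparison they were 10.3% at the unadjusted p and 1.28% without overlap. Without restricted 2 and restricted 4 they were 8.72% and 5.46%. The counts under the other settings thus have no share beside them and cannot be read as a rise. Probe sets past the threshold numbered 2, but 1 with 1 probe set a gene, 4 with array weights, 0 with the replicate block or the adipocyte covariate, 5 with the luminal covariate, 25 without restricted 2 and restricted 4, and 0 to 12 with single calves left out. Directions turned for IGF1 (adipocyte covariate 0.038, luminal covariate 0.033, without restricted 2 and restricted 4 0.050), IGFBP3 (0.097, 0.028 and 0.0054; left-out calves -0.21 to 0.0051) and PAPPA (0.080, 0.050 and 0.080). With single calves left out they turned for IGFBP1 (-0.00028 to 0.20) and IGFALS (-0.092 to 0.12). The cause was not tested. Relations with marker means numbered 0 past the threshold without restricted 2 and restricted 4, and 0 to 14 with left-out calves. Relations between the genes, an alternative chosen after seeing the data, numbered 7, 12 with median centring, 5 without restricted 2 and restricted 4, and 4 to 9 with left-out calves. Replicate numbers are shared by the titles of both diets. Deviations of same-numbered calves from their diet means correlated at 0.211, 0.0527, 0.102, 0.084 and -0.147. Differently numbered calves were not compared, so these values cannot show whether the numbers mark a pairing. With the replicate block IGF1R differed by 0.47. With dim probe sets left out IGFBP1 had no value, and averaging several probe sets of a gene changes nothing for the 10 genes, which have 1 each. Dim probe sets such as IGFBP1 and HMGA2 are limited by signal over background.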
